A study of Mus musculus with 10 samples.

Results

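The Cyp2c cytochromes P450 were compared between livers of mice fed an iso-α-acids diet and livers of mice fed a control diet, gene by gene, on 10 arrays. Of the 10 genes listed for the family, 8 were found by their own symbol in the platform annotation (Cyp2c37, Cyp2c38, Cyp2c39, Cyp2c40, Cyp2c50, Cyp2c54, Cyp2c55 and Cyp2c70), each with 1 probe set. Cyp2c44 was found under its current RefSeq symbol, Cyp2c23, which made 9 genes among 19505 with a symbol. Cyp2c29 was matched to no probe set by symbol or Entrez identifier and was not analysed here. All 9 probe sets varied, that is, their SD over the 10 arrays was at least 0.001 on the log2 scale, and none of the 9 genes was flat. Of all 22206 probe sets, 19767 (89.0%) were flat by this measure, so that neither a change nor its absence can be read from them.

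Iso-α-acids are the bitter acids that form from hop resins during brewing. Male C57BL/6N mice, purchased at 8 weeks of age, received AIN-93G diet with 0.5% (w/w) iso-α-acids for 1 week (iso-α-acids diet group, n = 5 arrays) or plain AIN-93G diet, pair-fed to the intake of the first group (control diet group, n = 5 arrays). All 10 mice, controls included, were given acetaldehyde i.p. at 200 mg/kg, and the livers were collected 5 h later. Each array held the RNA of 1 mouse, picked by the authors for a serum enzyme value typical of its group, so the spread between arrays is the spread among selected animals. A difference between the groups is one of diet in mice that had all received acetaldehyde.

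Cytochromes P450 are heme enzymes of the endoplasmic reticulum that insert oxygen into drugs, steroids, bile acids and fatty acids, using electrons passed on by P450 reductase and cytochrome b5. Mouse Cyp2c enzymes oxidize many foreign compounds, and several of them also turn arachidonic and linoleic acid into epoxides and hydroxy acids, which epoxide hydrolases convert to diols. In liver, Cyp2c genes are known to be controlled by the nuclear receptors CAR and PXR, which respond to foreign compounds, and by hepatocyte factors such as HNF4α.

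The genes lie on mouse chromosome 19, in groups of close relatives, and all but Cyp2c44, which lies apart, are in 1 cluster. The bases upstream of the annotated start are shown for 6 of them, so that close relatives can be read beside one another. Each run is the 150 bases before the outermost annotated start of the gene, 5′ to 3′ on the gene's strand, from RefSeq on GRCm38.p6. Capitals mark TATAAA (the TATA box) or CAAAGTCC (a core of HNF4 sites) on either strand, and of these runs only that of Cyp2c70 holds them. The Cyp2c38 run lies within the long Cyp2c39 transcript, on the opposite strand. The positions, in the order shown, are chr19:39992274-39992423 (+), chr19:40089529-40089678 (+), chr19:39463104-39463253 (-), chr19:39347196-39347345 (+), chr19:39006790-39006939 (+) and chr19:40187287-40187436 (-).
Cyp2c37: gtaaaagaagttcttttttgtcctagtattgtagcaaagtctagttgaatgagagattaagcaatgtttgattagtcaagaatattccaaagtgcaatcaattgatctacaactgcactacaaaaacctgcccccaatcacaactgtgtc
Cyp2c50: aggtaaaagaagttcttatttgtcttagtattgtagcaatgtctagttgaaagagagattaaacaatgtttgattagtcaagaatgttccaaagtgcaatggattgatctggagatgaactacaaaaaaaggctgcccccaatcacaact
Cyp2c38: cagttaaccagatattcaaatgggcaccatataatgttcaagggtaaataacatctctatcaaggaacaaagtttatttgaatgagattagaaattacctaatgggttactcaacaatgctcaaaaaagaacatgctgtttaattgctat
Cyp2c39: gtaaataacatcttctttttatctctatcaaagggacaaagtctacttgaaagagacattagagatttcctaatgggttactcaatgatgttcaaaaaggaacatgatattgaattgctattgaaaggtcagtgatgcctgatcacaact
Cyp2c55: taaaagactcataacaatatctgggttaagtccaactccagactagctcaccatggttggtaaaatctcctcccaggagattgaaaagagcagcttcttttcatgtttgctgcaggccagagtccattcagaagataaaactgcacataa
Cyp2c70: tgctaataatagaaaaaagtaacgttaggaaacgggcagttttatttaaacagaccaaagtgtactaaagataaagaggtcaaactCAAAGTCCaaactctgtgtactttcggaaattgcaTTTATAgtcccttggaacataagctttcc

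Identity and motifs were taken over the 250 bases before each start in the RefSeq promoter table. That start lies inside the annotated gene by 79 bases for Cyp2c55, 28 for Cyp2c38 and 41 for Cyp2c29, and 1 of the 2 starts of Cyp2c39 lies inside the gene too. Over these windows, Cyp2c37 and Cyp2c50 were identical in 84.3% of aligned positions, gaps counted as different. The same value for Cyp2c38 and Cyp2c39 was 75.8% with the outermost Cyp2c39 start and 71.0% with the inner one. Of 9 such windows, which cover the genes of the list that have one (Cyp2c29 included, with both starts of Cyp2c39), 2 held CAAAGTCC (those of Cyp2c40 and Cyp2c70), against 1.2% of 32851 windows of all genes. The windows of Cyp2c65, Cyp2c66, Cyp2c67, Cyp2c68 and Cyp2c69 also held it, and those of Cyp2c37, Cyp2c38, Cyp2c39, Cyp2c50 and Cyp2c55 did not. TATAAA was in 4 of the 9 (Cyp2c29, Cyp2c38, Cyp2c55 and Cyp2c70) and in 12.4% of all windows. AGGTCA, the hexamer bound by many nuclear receptors, was in 3 of the 9 (Cyp2c29, Cyp2c39 and Cyp2c70) and in 14.0% of all windows. TGTTTAC, the core of HNF3 sites, was in 3 of the 9 (Cyp2c38 and both starts of Cyp2c39), farther from the start than the bases printed above, and in 3.17% of all windows. TGACNNNGC, the antioxidant response element, was in 0 of the 9 and in 10.2% of all windows. All 5 motifs were searched on both strands, and no match overlapped another. These matches are descriptions of sequence, not sites shown to be bound.

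The number of arrays limits the precision, and 2 arrays bear on most of the values below. The first is that of iso-α-acids replicate 1. Its root mean square log2 difference from replicates 2 to 5 was 0.625 to 0.646, against 0.129 to 0.169 among those 4 and 0.175 to 0.365 among the control arrays, over 2439 varying probe sets. The second is control replicate 3, which held the lowest value of all 10 arrays, and so of the 5 controls, for 7 of the 9 Cyp2c genes. It was the lowest of 10 for 12.5% of varying probe sets and the lowest control for 24.9%. Results are therefore also given without replicate 1. Leaving out each array was planned, but this array was singled out by its values, those of the Cyp2c genes included. The p-values without it take no account of that choice. The hepatocyte markers Alb, Apoa1, Ttr and Serpina1a lay near the top of the range on all arrays and were flat. The other 2 of the 6 hepatocyte markers varied. Cyp2e1 was higher in all iso-α-acids mice than in all controls (log2 difference 0.19, SE 0.069, limma adjusted p = 0.377) and was upregulated by rank products, and Tat had a log2 difference of -0.09 (SE 0.057, limma adjusted p = 0.698). No marker of lymphocytes (0 of 5) or neutrophils (0 of 5) varied. The 4 varying markers of Kupffer cells, the macrophages of the liver (of 6 listed), averaged between -0.73 and -0.39 in iso-α-acids livers and between -0.30 and 0.21 in control livers, on the log2 scale relative to the control mean. Of the 6, limma called 0, but 4 were lower at an unadjusted p under 0.05 and by rank products, and their part in the Cyp2c values was not tested. In whole liver, fewer cells of a type and less RNA per cell cannot be told apart.

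In the iso-α-acids diet group, the probe sets of 5 Cyp2c genes lay above those of all control mice, with no overlap between the groups: Cyp2c38, Cyp2c39, Cyp2c50, Cyp2c54 and Cyp2c55. This was 5 of 9 genes, where 12.1% of varying probe sets and 1.77% of all probe sets had all iso-α-acids arrays above all control arrays. No Cyp2c gene (0 of 9) had all iso-α-acids arrays below all controls, which 7.3% of varying and 1.42% of all probe sets had. The mean levels of these 5 genes were 1.48-fold (Cyp2c50) to 2.98-fold (Cyp2c38) higher. Cyp2c70 was lower in 4 of the 5 mice. With p adjusted over all probe sets, limma called 0 of the 9 genes at the 0.05 threshold, while it called 0.59% of all probe sets (5.13% of varying ones) higher and 0.171% (1.07%) lower. At an unadjusted p under 0.05, 5 were higher and 1 was lower, against 4.81% and 5.02% of all probe sets and 22.6% and 14.6% of varying ones. By rank products, which the authors' methods use, 6 were upregulated and 2 downregulated at an FDR under 0.05, with 3.72% and 3.19% of all probe sets and 33.5% and 28.4% of varying ones called. The median log2 difference of the 9 genes was 0.69, beside 0.01 over varying probe sets. The exact two-sided permutation test gave an unadjusted p of 0.0317 for Cyp2c37, 0.0238 for Cyp2c70, 0.317 for Cyp2c44 and 0.50 for Cyp2c40. For the 5 genes without overlap its p, 0.00794, is the smallest that 5 arrays against 5 allow and restates the lack of overlap. The 9 genes were chosen with earlier results of these data known, and all were measured in the same mice. The shares of probe sets beside the counts are therefore context, not a test.

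**Figure D1:**
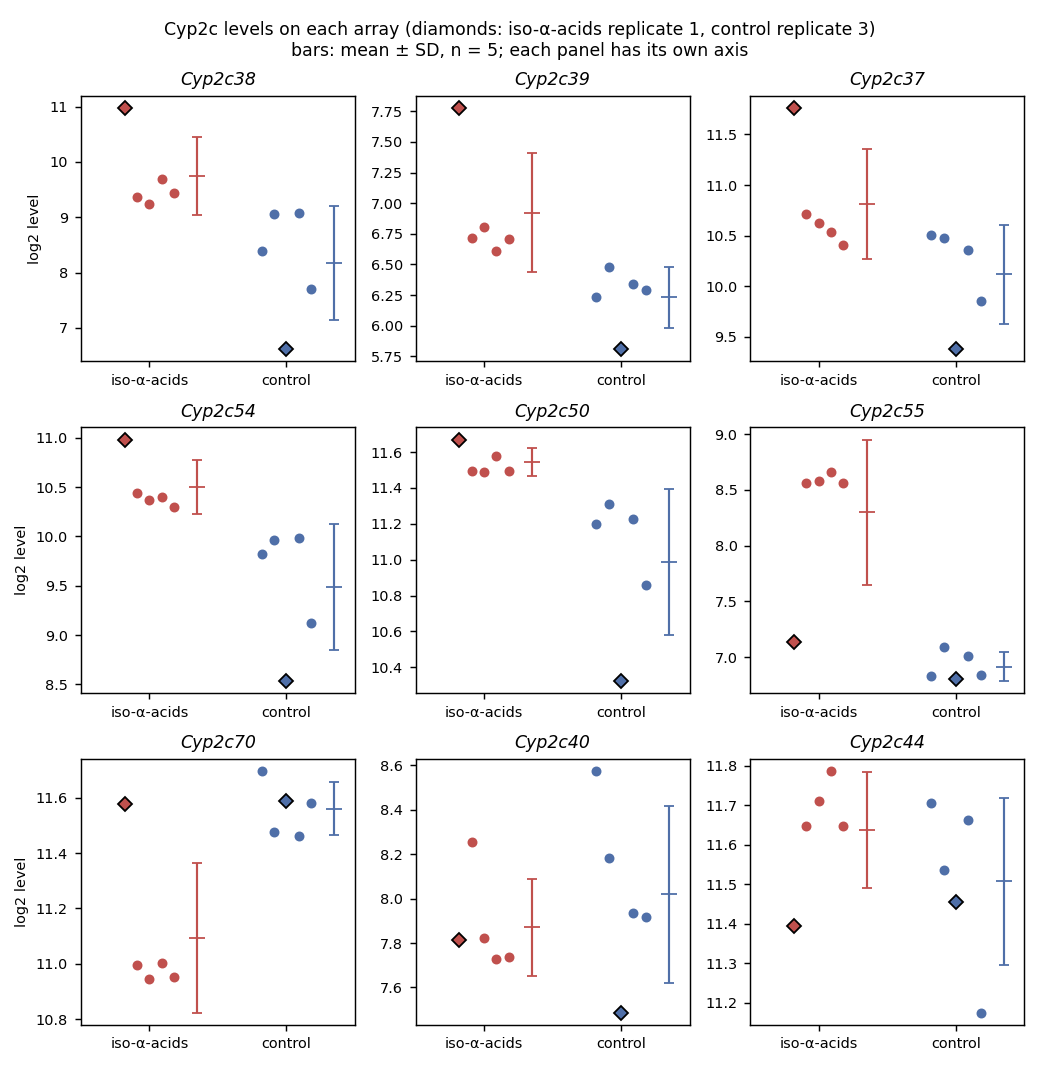
Log2 level of each Cyp2c gene (vertical axis, scaled per panel) on each iso-α-acids array (left, red) and each control array (right, blue), with mean ± SD (n = 5). Diamonds mark iso-α-acids replicate 1, which is the highest of 10 arrays for 5 genes and near the controls for Cyp2c55 and within their range for Cyp2c70, and control replicate 3, which is the lowest of 10 for 7 genes.

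Cyp2c37, Cyp2c50 and Cyp2c54 encode closely related enzymes that oxidize arachidonic and linoleic acid. Cyp2c54 was at 10.98, 10.44, 10.37, 10.40 and 10.30 in iso-α-acids replicates 1 to 5, and at 9.82, 9.96, 8.54, 9.99 and 9.13 in control replicates 1 to 5, as log2 levels. All iso-α-acids mice lay above all controls, replicate 1 was the highest, and control replicates 3 and 5 were the lowest. The means were 10.50 ± 0.276 and 9.49 ± 0.637 (SD, n = 5 each), a log2 difference of 1.01 (standard error, SE, 0.30) or 2.02-fold, with an adjusted p of 0.267 by limma. Without replicate 1 the difference was 0.89 (SE 0.32, limma adjusted p = 0.292).

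Cyp2c50 was at 11.67, 11.50, 11.49, 11.58 and 11.50 in iso-α-acids livers and at 11.20, 11.31, 10.32, 11.23 and 10.86 in control livers. The iso-α-acids values were close together and all above the controls, while the control values spread over about 1 log2 unit. It was higher by a log2 difference of 0.56 (SE 0.18, limma adjusted p = 0.313), and 0.53 without replicate 1. Cyp2c37 was at 11.77, 10.72, 10.63, 10.54 and 10.41 in iso-α-acids livers and at 10.51, 10.48, 9.38, 10.36 and 9.86 in control livers. Here the groups overlapped, since iso-α-acids replicate 5 lay below control replicates 1 and 2. The log2 difference was 0.70 (SE 0.32, limma adjusted p = 0.541) and 0.46 (SE 0.25) without replicate 1, a change from 1.62-fold with it to 1.37-fold without it. The 3 genes are close relatives, and how far their probes distinguish the transcripts was not tested.

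Cyp2c38 and Cyp2c39 are neighbours whose enzymes oxidize arachidonic acid, and the Cyp2c39 enzyme also acts on retinoic acid. Cyp2c38 had the widest range of the family. It was at 10.98, 9.37, 9.24, 9.70 and 9.43 in iso-α-acids livers and at 8.39, 9.06, 6.62, 9.08 and 7.70 in control livers. All iso-α-acids mice were above all controls, but replicate 3 by only a small margin over control replicates 2 and 4. The means were 9.74 ± 0.711 and 8.17 ± 1.04 (SD, n = 5 each), with a log2 difference of 1.57 (SE 0.55, limma adjusted p = 0.365) or 2.98-fold. Without replicate 1 it was 1.26 (SE 0.52) or 2.40-fold.

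Cyp2c39 was at 7.78, 6.72, 6.80, 6.61 and 6.71 in iso-α-acids livers and at 6.24, 6.48, 5.81, 6.34 and 6.30 in control livers, again with no overlap. Its means differed by 0.69 on the log2 scale (SE 0.24, limma adjusted p = 0.356). Without replicate 1 the difference was 0.48 (SE 0.13, limma adjusted p = 0.152). With both replicate 1 and control replicate 3 left out, a setting chosen after the data were seen, the log2 difference of Cyp2c39 was 0.37 and passed limma's test (adjusted p = 0.0452). In that setting the log2 differences of Cyp2c37 (0.27), Cyp2c38 (0.88), Cyp2c54 (0.65) and Cyp2c50 (0.36) were smaller than over all arrays by more than 1.5 times and did not pass. RefSeq places Cyp2c38 inside the span of a long Cyp2c39 transcript, and whether the probe sets share signal was not tested.

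Cyp2c55 encodes an enzyme that hydroxylates arachidonic acid and is known from the colon as well as the liver. It was at 7.14, 8.56, 8.58, 8.66 and 8.56 in iso-α-acids livers, against 6.83, 7.09, 6.80, 7.01 and 6.84 in control livers. Replicates 2 to 5 were far above the controls and close to one another, while replicate 1 exceeded the highest control only slightly. Over all arrays the log2 difference was 1.38 (SE 0.29, limma adjusted p = 0.1005) or 2.61-fold. Without replicate 1, Cyp2c55 rose by 1.68 (SE 0.067, limma adjusted p = 2.98e-05) or 3.19-fold, where 1.57% of all probe sets and 13.0% of varying ones were called higher. It was then the only 1 of the 9 genes called higher. Replicate 1 was singled out by its values, those of Cyp2c55 included, and the SE and p-value without it take no account of that. In a fit to the varying probe sets alone, with all 10 arrays, Cyp2c55 also rose (limma adjusted p = 0.00961), as did Cyp2c54 (limma adjusted p = 0.0389), and 13.4% of those probe sets were called higher.

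Cyp2c70 makes the muricholic acids of mouse bile by hydroxylating chenodeoxycholic acid. It was at 11.58, 11.00, 10.94, 11.00 and 10.95 in iso-α-acids livers and at 11.70, 11.48, 11.59, 11.46 and 11.58 in control livers. Replicates 2 to 5 were below all controls, and replicate 1 was within the control range. The means differed by -0.47 on the log2 scale (SE 0.13, limma adjusted p = 0.208). Without replicate 1, Cyp2c70 fell by 0.59 on the log2 scale (SE 0.049, limma adjusted p = 0.00158) to 0.666 of the control level, where 0.662% of all probe sets and 4.26% of varying ones were called lower. It also fell in the fit to varying probe sets with all arrays (limma adjusted p = 0.0272), which called 6.89% of them lower. As for Cyp2c55, the p-value without replicate 1 takes no account of how that array was singled out.

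**Figure D2:**
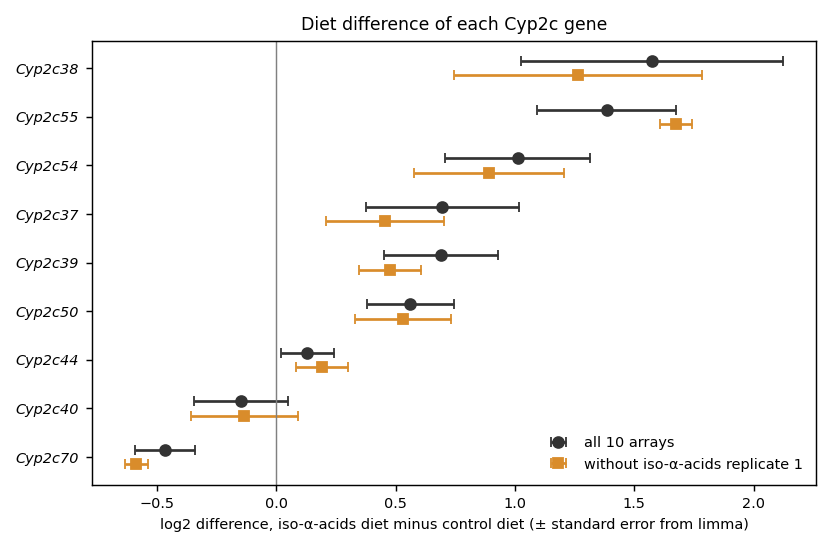
Log2 difference (horizontal axis, iso-α-acids diet minus control diet) of the 9 Cyp2c genes, with standard errors from limma, over all 10 arrays (circles) and without iso-α-acids replicate 1 (squares). Leaving that array out moved Cyp2c55 to 1.68 and Cyp2c70 to -0.59 with smaller errors, and moved Cyp2c37, Cyp2c38 and Cyp2c39 toward 0.

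Cyp2c40 and Cyp2c44 showed no separation of the groups. Cyp2c40, whose enzyme hydroxylates arachidonic acid, was at 7.82, 8.25, 7.82, 7.73 and 7.74 in iso-α-acids livers and at 8.57, 8.18, 7.49, 7.94 and 7.92 in control livers, and the controls spread more widely. Its log2 difference was -0.15 (SE 0.20, limma adjusted p = 0.892), although rank products called it downregulated (FDR 0.0237). It was -0.01 without control replicate 1, -0.28 without control replicate 3 and -0.24 without iso-α-acids replicate 2. Cyp2c44, an epoxygenase of arachidonic acid, was at 11.39, 11.65, 11.71, 11.79 and 11.65 in iso-α-acids livers and at 11.71, 11.54, 11.46, 11.66 and 11.17 in control livers. Its log2 difference was 0.13 (SE 0.11, limma adjusted p = 0.803), and 0.05 without control replicate 5.

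The annotation holds 5 other Cyp2c genes. Of these, Cyp2c65 and Cyp2c66 were flat. Cyp2c67, Cyp2c68 and Cyp2c69, relatives of Cyp2c40, had log2 differences of -0.39 (SE 0.16), 0.08 (SE 0.19) and -0.30 (SE 0.11), and 0 of the 5 passed limma's test. Cyp2c67 and Cyp2c69 were lower at an unadjusted p under 0.05, and both were downregulated by rank products. Along the chromosome, in the order of the mouse assembly GRCm38.p6, Cyp2c67, Cyp2c68, Cyp2c40 and Cyp2c69 lie between the neighbours Cyp2c39 and Cyp2c38 on one side and Cyp2c37, Cyp2c54 and Cyp2c50 on the other. The diet differences of the 4 genes between them ran from -0.39 to 0.08, and those of the 5 flanking genes from 0.56 to 1.57. Without replicate 1 the ranges were -0.25 to -0.07 and 0.46 to 1.26, and Cyp2c68 turned its sign, at -0.07. The ends of the cluster lie outside this grouping, which was made after the values were seen. Over all arrays, Cyp2c70, next to Cyp2c50, had a log2 difference of -0.47, and Cyp2c55, at the other end, had 1.38. Neighbours here are often close relatives, and how far their probes distinguish the transcripts was not tested.

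**Figure D3:**
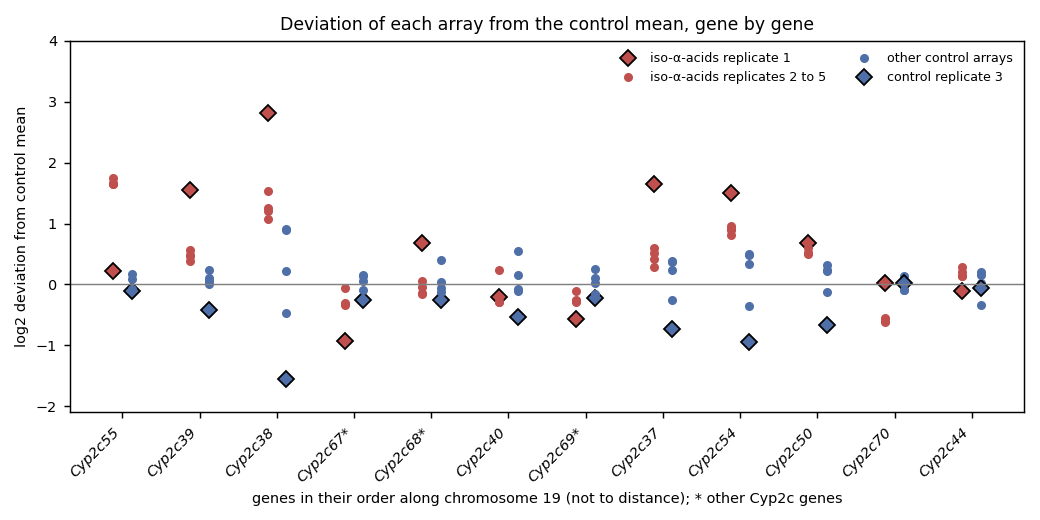
Deviation of each array from the control mean (vertical axis, log2) for the 12 varying Cyp2c genes in their order on chromosome 19, with iso-α-acids arrays in red and control arrays in blue, and iso-α-acids replicate 1 and control replicate 3 as diamonds. Replicate 1 stands highest at Cyp2c38 (2.81 above the control mean) and lies at 0.22 for Cyp2c55 and 0.02 for Cyp2c70.

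Iso-α-acids replicate 1 divided the family. It was above the mean of replicates 2 to 5 by 1.55 for Cyp2c38, 1.19 for Cyp2c37, 1.07 for Cyp2c39, 0.60 for Cyp2c54 and 0.16 for Cyp2c50 on the log2 scale. For these 5 genes it was the highest of the 10 arrays, which it was for 27.6% of varying probe sets. For Cyp2c55 it was below replicates 2 to 5, with a log2 difference of -1.45, though above the highest control. For Cyp2c70 it was above them by 0.60, within the control range. Among the relatives of Cyp2c40, it was the lowest array for Cyp2c67 and Cyp2c69, as for 34.8% of varying probe sets, and the highest for Cyp2c68. Other gene lists set this array apart too. Of 20 acute phase and stress genes, limma called 0, also at an unadjusted p under 0.05, while by rank products 4 were upregulated and 13 downregulated. Without replicate 1, limma called 1 of them lower, the receptor gene Il1r1. Their mean was 1.07 above the control mean in replicate 1, and between -0.56 and -0.32 in replicates 2 to 5. The mean of 12 genes that are higher in male than in female mouse liver was at -2.32 in replicate 1, between -0.28 and -0.22 in replicates 2 to 5, and between -0.11 and 0.12 in controls. The mean of 9 varying genes that are higher in female liver was 1.87 above the control mean in replicate 1, 0.81 to 1.07 above it in replicates 2 to 5, and between -0.11 and 0.07 in controls. The part of these lists in the Cyp2c values was not tested.

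Among the control mice, the same 2 arrays were low for several Cyp2c genes. Control replicate 3 was the lowest control for 7 of the 9 genes: Cyp2c37, Cyp2c38, Cyp2c39, Cyp2c40, Cyp2c50, Cyp2c54 and Cyp2c55. Replicate 5 was the next lowest for all of these but Cyp2c39 and Cyp2c55, for which replicate 1 was. Relative to the mean of the other 4 controls, replicate 3 was at -1.94 on the log2 scale for Cyp2c38, -1.19 for Cyp2c54, -0.92 for Cyp2c37 and -0.83 for Cyp2c50. It was at -0.67 for Cyp2c40 and -0.53 for Cyp2c39, but at -0.14 for Cyp2c55, -0.07 for Cyp2c44 and 0.03 for Cyp2c70. Control replicates 3 and 5 had the highest acute phase and stress genes among the controls. The mean of the 20 genes was at 0.58 in replicate 3 and 0.36 in replicate 5, against -0.37 to -0.28 in control replicates 1, 2 and 4. In the iso-α-acids diet group the array with the highest acute phase mean, replicate 1, had the highest Cyp2c37, Cyp2c38, Cyp2c39, Cyp2c50, Cyp2c54 and Cyp2c70. It had the lowest Cyp2c55 and Cyp2c44 of that group. Whether either relation is more than the order of these arrays was not tested. Without control replicate 3 the log2 differences were 1.19 for Cyp2c38, 0.77 for Cyp2c54, 0.51 for Cyp2c37, 0.40 for Cyp2c50, 0.59 for Cyp2c39 and 1.36 for Cyp2c55.

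The genes whose levels were most like those of the Cyp2c genes differed with the member. Over the 10 arrays, and among 2160 genes with a varying probe set outside the family, Cyp2c55 was closest to Vnn1, a pantetheinase (r = 0.989), and to Ehhadh (r = 0.987) and Hadhb (r = 0.983), which act in peroxisomal and mitochondrial β-oxidation. Cyp2c38 was closest to Dpys (r = 0.968), an enzyme of pyrimidine breakdown, then to Klb (r = 0.954) and Epas1 (r = 0.946). Cyp2c54 was closest to Acot12 (r = 0.956), Sugct (r = 0.950) and C2cd2 (r = 0.941). Cyp2c37 was closest to Fam13a (r = 0.976), Akr1d1 (r = 0.957), an enzyme of bile acid synthesis, and Inca1 (r = 0.956). These values are Pearson's r, given as descriptions. The points share the split by diet and the distance of replicate 1 from the rest.

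Among proteins that pass electrons to microsomal P450s or bind them, Pgrmc1, a heme-binding partner of P450s, rose. It was at 12.09, 12.14, 12.04, 12.18 and 12.17 in iso-α-acids livers and at 11.99, 11.89, 11.89, 11.94 and 11.90 in control livers, with no overlap. The log2 difference was 0.20 (SE 0.032, limma adjusted p = 0.0336). Of the 4 partners measured (P450 reductase, Por, was not analysed here), 1 rose, 0 fell and 3 did not pass. By rank products all 4 were upregulated, where 33.5% of varying probe sets were, and 2 of the 4 had an unadjusted p under 0.05. Cytochrome b5 (Cyb5a) had a log2 difference of 0.33 (SE 0.081, limma adjusted p = 0.155) with no overlap, Cyb5b had 0.12 (SE 0.18) and cytochrome b5 reductase (Cyb5r3) had 0.00 (SE 0.17). Replicate 1 was below all controls for Cyb5b and Cyb5r3, while the other 4 iso-α-acids arrays lay above all controls for both. Without replicate 1, Cyb5b rose by 0.30 (limma adjusted p = 0.0418). Cyb5r3 then had a log2 difference of 0.18 (SE 0.049, limma adjusted p = 0.162).

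Of 11 receptors and liver factors known to act on Cyp2c genes, 0 passed limma's test in either direction, and at an unadjusted p under 0.05 1 was higher. That 1 was Nr1i3, which encodes CAR. It was at 11.25, 9.94, 9.87, 10.04 and 9.88 in iso-α-acids livers and at 9.40, 9.30, 9.02, 9.72 and 9.28 in control livers. The groups did not overlap. Replicate 1 was the highest array and control replicate 3 the lowest, as for Cyp2c37, Cyp2c38, Cyp2c39, Cyp2c50 and Cyp2c54. Replicate 1 was 1.32 above the mean of replicates 2 to 5 for Nr1i3, but at -1.45 from it for Cyp2c55. It was the highest array for 27.6% of varying probe sets, and the part of Nr1i3 in the Cyp2c values was not tested. The log2 difference of Nr1i3 was 0.85 (SE 0.28, limma adjusted p = 0.330) and 0.59 (SE 0.13, limma adjusted p = 0.0818) without replicate 1. Nr1i2, which encodes PXR, had a log2 difference of 0.24 (SE 0.11, limma adjusted p = 0.529), with overlapping groups. Rank products called both upregulated. The differences of Ppara, Hnf4a, Cebpa, Nr0b2 and Esr1 lay between -0.09 and 0.04. Nr3c1, Cebpb and Nr1h4 were flat. Rxra, with an SD of 0.002 over the 10 arrays, was barely above the limit for flat, so little can be read from it.

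Downstream of the epoxygenases, microsomal epoxide hydrolase (Ephx1) rose. It was at 11.71, 11.78, 11.58, 11.64 and 11.69 in iso-α-acids livers and at 10.45, 10.53, 10.14, 10.50 and 10.65 in control livers, far apart. The log2 difference was 1.23 (SE 0.090, limma adjusted p = 0.000682) or 2.34-fold, and replicate 1 lay among the other 4. Soluble epoxide hydrolase (Ephx2), the main hydrolase of fatty acid epoxides, had a log2 difference of 0.05 (SE 0.092, limma adjusted p = 0.930). Without replicate 1, which was below all controls, the difference of Ephx2 was 0.13 (SE 0.048, limma adjusted p = 0.314). Of 14 genes of epoxide hydrolases and other P450s of arachidonate and linoleate, 6 varied, 1 rose, 0 fell and 13 did not pass. Cyp2j5, an abundant epoxygenase of another family, had a log2 difference of 0.00 (SE 0.049), and 0.05 (SE 0.026) without replicate 1. Cyp4f14 had -0.62 (SE 0.21, limma adjusted p = 0.333) with all iso-α-acids mice below all controls, and without replicate 1 it fell by 0.41 (limma adjusted p = 0.00525).

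**Figure D4:**
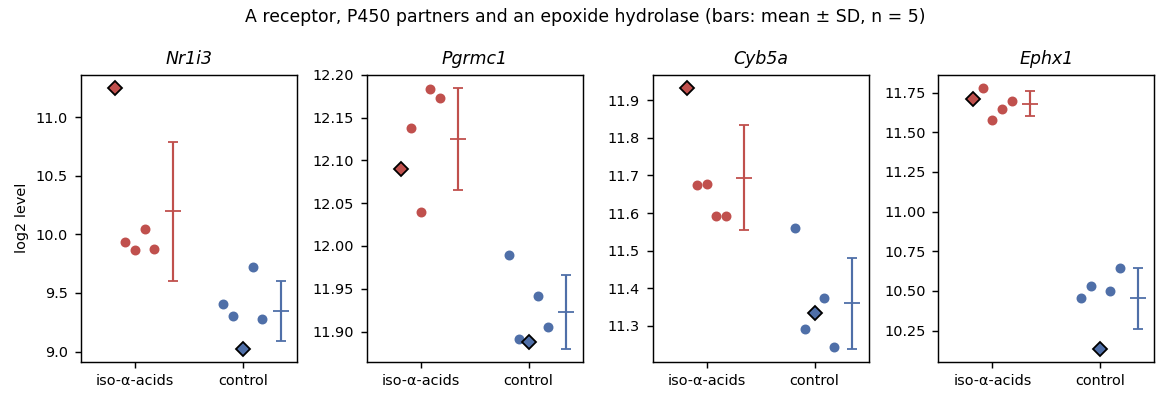
Log2 levels (vertical axis, scaled per panel) of Nr1i3, Pgrmc1, Cyb5a and Ephx1 on each iso-α-acids array (left) and each control array (right), with mean ± SD (n = 5) and diamonds for iso-α-acids replicate 1 and control replicate 3. In all 4 panels every iso-α-acids array lies above every control array; Pgrmc1 and Ephx1 passed limma's test.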

How the data were processed

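Liver RNA of 10 mice was hybridized to Clariom S Mouse Arrays, 1 mouse per array. The authors quantile normalized the CEL files and summarized them with qFARMS to log2 values, 1 per probe set, which were deposited and used unchanged (range 4.94 to 13.37). The log base was read from this range, and versions and settings are not given in the sources used here. In qFARMS a probe set with no shared signal among its probes collapses to about 1 value, so most are flat here. Groups were compared with limma 3.58.1 in R 4.3.3 (lmFit, eBayes, two-sided, Benjamini-Hochberg over 22206 probe sets, threshold 0.05). Rank products used all one-to-one pairings, the median over pairings and a gamma p. It called 33.5% of varying probe sets upregulated and 28.4% downregulated, beside which its counts in the gene lists are to be read. Exact permutation tests took all 252 labelings. Where a gene of the other lists had more than 1 probe set, the brightest was taken. Symbols came from the platform annotation (19572 probe sets with 1 symbol, 2634 with none or several), and RefSeq (GRCm38.p6) gave synonyms, gene order and promoter sequences. Limma and rank products were also run on simulated data with independent normal noise and known changes. Those data held no outlying array, so they do not show how the tests behave with 1. The text names every member, the electron partners and regulators whatever their result, other list genes that passed limma, and for the 4 members with the largest differences the 3 most similar genes; other examples were chosen after their values were seen. The members and lists were chosen with earlier results of these data known. Alternatives were other scalings, filters, variance models, weights, a block, a stricter threshold, rank products, and leaving out each array.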

Additional observations from a re-analysis of the deposited data

Results flagged for a closer look

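For 12 varying Cyp2c genes in 2 groups, 24 sets of 5 arrays were examined for 1 array far from the other 4, by the gap to its nearest neighbour as a share of the range, with a limit of 0.71. Chance gives such an array in about 1 of 20 independent sets. These sets are not independent, since all 12 genes share the same mice, so their count cannot be set against that rate. In 8 sets such an array was found, 7 of them with iso-α-acids replicate 1. That array was the highest of its group for Cyp2c37 (share 0.772), Cyp2c38 (0.737), Cyp2c39 (0.835), Cyp2c54 (0.788), Cyp2c68 (0.747) and Cyp2c70 (0.909), and the lowest for Cyp2c55 (0.931). The eighth was Cyp2c40, for which iso-α-acids replicate 2 was the highest (0.827). No control array was found this way.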

How the results depend on the processing

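Over all probe sets and arrays, limma called 0 Cyp2c genes higher and 0 lower, and 131 probe sets higher and 38 lower. Among varying probe sets alone it called 2 and 1 Cyp2c genes (Cyp2c54, Cyp2c55; Cyp2c70) and 327 and 168 probe sets, with fewer probe sets to adjust over. Array weights called 1 gene higher (Cyp2c55), and 180 and 56 probe sets. Rank products called 6 and 2 genes and 826 and 708 probe sets. Without any 1 array, 0 to 1 genes were called higher and 0 to 1 lower, and 65 to 349 and 6 to 147 probe sets. Both genes (Cyp2c55, Cyp2c70) were called without iso-α-acids replicate 1, the setting with 349 and 147, and none was called without any other array. Without that array and control replicate 3, a setting added after the data were seen, 2 and 1 genes (Cyp2c39, Cyp2c55; Cyp2c70) and 313 and 110 probe sets were called. The threshold of 0.01 called 51 and 3 probe sets, quantile normalization again 71 lower, and a trended, robust variance 23 lower. The replicate number as a block called 0 genes and 21 and 1 probe sets. The labels do not state that the numbers pair the mice. Deviations of same-numbered arrays correlated between -0.21 and 0.23, and 1 of 5 arrays correlated best with its own number. So few values show no clear pairing but cannot exclude it. No log2 difference of the 9 genes changed sign in 19 limma settings. The filters, the block, the trended variance and the stricter threshold leave each difference as in the main fit. They could not have changed a sign, and median centring hardly moved the values. The cause of the changes in the calls was not tested.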

Other observations

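Of 14 genes known to be higher in female mouse liver, 5 rose in iso-α-acids livers by limma's test and 0 fell: Cyp3a44 (log2 difference 1.60), Cyp3a41a (0.45), Cyp2a4 (2.06), Acot3 (2.14) and Acot4 (0.77). By rank products 7 were upregulated and 2 downregulated, Cyp2c69 and Fmo2, though the mean of Fmo2 was higher by 0.23 (-0.10 without iso-α-acids replicate 1). At an unadjusted p under 0.05, 6 were higher and 1 was lower, Cyp2c69. Of 12 genes higher in male liver, 0 passed limma's test. By rank products 2 were upregulated and 8 downregulated, and 4 were lower at an unadjusted p under 0.05. Of the 12, 7 were lower in all iso-α-acids mice than in all controls, and without iso-α-acids replicate 1, limma's test found that 5 fell (Cyp7b1, Hsd3b5, Elovl3, Cyp2u1 and Selenbp2) and 2 rose (Cyp4a12a and Cyp4a12b). The Cyp2c gene on the female list, Cyp2c69, had a log2 difference of -0.30.

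Of 10 pericentral and 9 periportal hepatocyte genes, 0 passed limma's test in either direction. At an unadjusted p under 0.05, 1 pericentral gene was higher and 3 were lower, and 1 periportal gene was lower. By rank products, 2 pericentral genes were upregulated and 3 downregulated, and 4 periportal genes were downregulated. Of the lists, 7 pericentral and 8 periportal genes varied. Rank products called 33.5% of varying probe sets upregulated and 28.4% downregulated. Without iso-α-acids replicate 1, Cyp1a2 (pericentral) and Cps1 (periportal) fell. Of the markers of endothelial cells, stellate cells and cholangiocytes, 0 passed limma's test. By rank products 2 endothelial markers (Lyve1 and Kdr) and 1 stellate cell marker (Hgf) were downregulated and the 1 varying cholangiocyte marker (Sox9) was not. The 1 endothelial marker that was lower at an unadjusted p under 0.05 was flat. Among 6 enterocyte markers, 1 fell, Apoa4 (log2 difference -0.92), which liver also expresses.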
